A study of Mus musculus with 8 samples.

Results

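The nuclear genes of respiratory complexes II and III, of cytochrome c and of ATP synthase were examined in RNA from QF muscle, a large thigh muscle, of mice. The 44 genes were chosen by name from the 14012 genes of the deposited table. Included were the Sdh subunit genes and Sdhaf, Uqcr, Uqcc and Atp5 names together with Cyc1, Bcs1l, Ttc19, Lyrm7, Atpaf1, Atpaf2, Atpif1 and Cycs. The rule itself reads names alone, but it was set with earlier results of these data known. There were 8 genes of complex II, 15 of complex III, 1 of cytochrome c and 20 of ATP synthase, and all 44 were counted in every library, from 122 counts of Sdhaf3 to 58917 of Atp5b. The set lies on 17 chromosomes.

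The libraries came from 4 mice labelled as skeletal muscle knockouts of Grpel1 (Grpel1 smk -/-) and 4 mice labelled as Grpel1 flox/flox controls, 1 library per mouse. Both groups carry the floxed gene. In the knockouts a tamoxifen-dependent Cre recombinase, made under the human skeletal muscle actin promoter, removes it in muscle fibres of young mice, so the other cell types of the muscle are outside the deletion. GRPEL1 is a nucleotide exchange factor of the chaperone that pulls proteins into the mitochondrial matrix. The study describes floxed littermates as untreated where it follows body weight, and it also kept floxed mice that received tamoxifen. Which kind gave these control libraries is not stated in the sources used here. If the controls had no tamoxifen, an effect of the drug and of the deletion cannot be told apart. The Grpel1 count itself did not check the labels (log2 fold change -0.07, adjusted p = 0.49 by edgeR's test with Benjamini-Hochberg adjustment). At the protein level the study reports less GRPEL1 in knockout QF muscle by immunoblot and immunostaining. It does not say whether the same mice were sequenced. Below, "knockout" means the libraries labelled so.

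Complex II, succinate dehydrogenase, takes electrons from succinate and hands them to coenzyme Q, and it is also an enzyme of the citric acid cycle. Complex III passes electrons from coenzyme Q to cytochrome c, a small soluble carrier that hands them on to complex IV, and pumps protons as it does so. ATP synthase lets the protons flow back through a ring of c subunits in the membrane, whose rotation drives ATP production in the F1 head. All subunits of complex II and cytochrome c are encoded in the nucleus, while complex III has the mtDNA-encoded subunit CYTB and ATP synthase has ATP6 and ATP8. The nuclear-encoded proteins are imported into mitochondria, and assembly factors then put cofactors and subunits together. Skeletal muscle holds large amounts of these complexes.

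Most of the 44 genes were lower in knockout muscle relative to other genes. The quasi-likelihood test of edgeR was run on all genes with Benjamini-Hochberg (BH) adjustment, and an adjusted p under 0.01 was called. By it 35 of the 44 genes were lower, 1 (Atpif1) was higher and 8 did not pass. Among all genes tested 21.1% were lower and 23.6% were higher by the same rule (44.7% in either direction). Counted by groups of libraries that did not overlap, 36 of the 44 genes were lower and 2 (Atpif1 and Atp5g2) were higher, beside 24.4% and 29% of all genes (53.4% in either direction). The median log2 fold change, knockout minus control, was -0.57 over the 44 genes (quartiles -0.70 and -0.31, range -0.96 to 0.39) beside 0.07 over all genes. These values rest on TMM scaling, which corrects the library size for composition, and their sign depends on it. Scaled by library totals alone, the median became 0.10 for the 44 genes and 0.73 for all genes, 32 of the 44 were positive (28 of them turned), and calls became 1 lower (Cycs) and 15 higher, beside 6.23% and 60.6% of all genes. Relative to the median of all genes the 44 genes had a median of -0.63 under both scalings and 40 of 44 lay below it under both. Scaling shifts all genes by nearly the same amount, so this likeness follows from the arithmetic and is not added support. A change is therefore given below relative to the bulk of other genes, and not per fibre or per unit of RNA. In whole muscle, less RNA of these genes per fibre and a smaller contribution of fibres cannot be told apart.

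**Figure D1:**
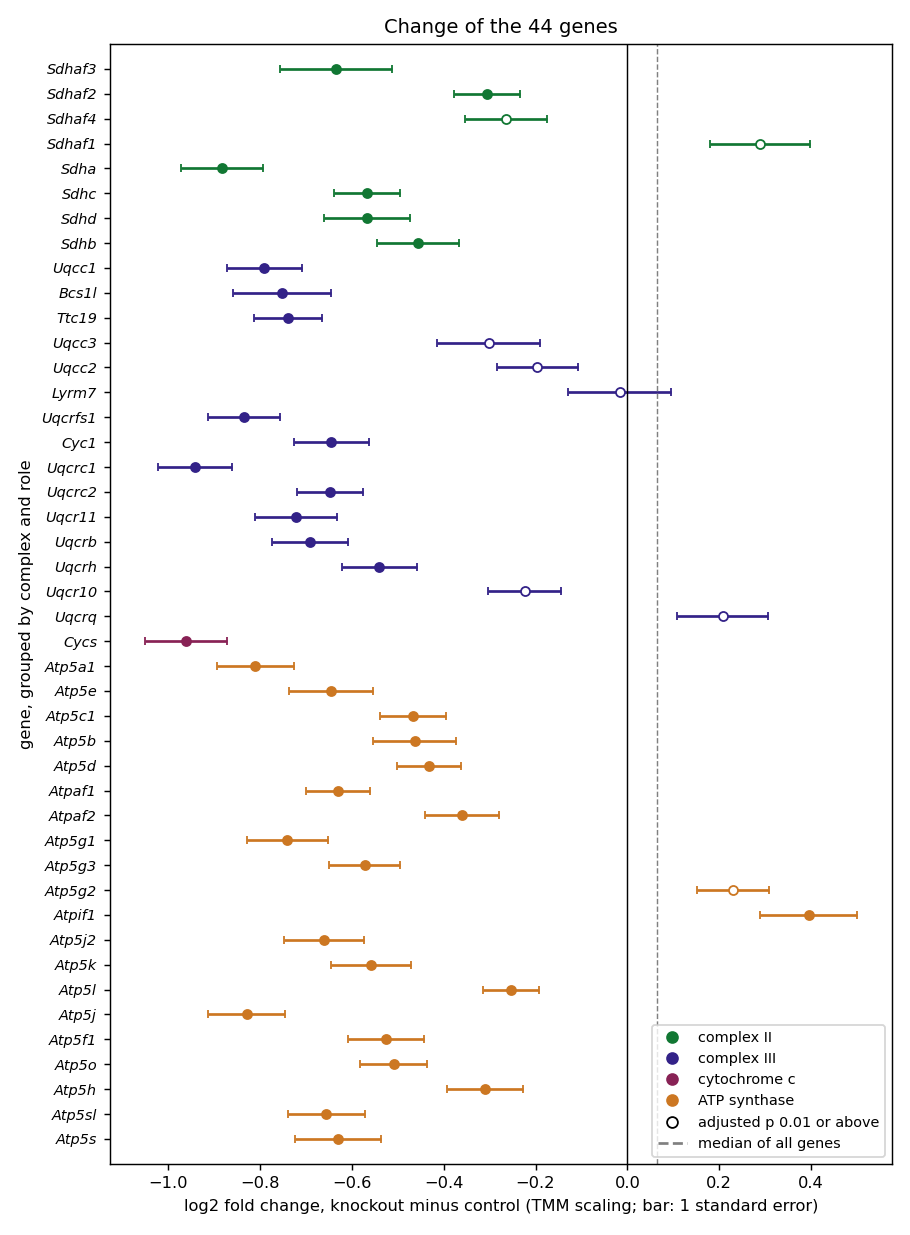
Log2 fold change (x axis, knockout minus control, TMM-scaled counts, bars 1 standard error) of each of the 44 genes (y axis), coloured by complex and grouped by role, with open circles for genes at an adjusted p of 0.01 or above. Of the 44 genes 40 lie left of 0 and Atpif1 is the filled circle to the right, and with library totals alone 32 of the 44 had positive values.

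The composition of the libraries moved together with this scaling. The 10 skeletal muscle marker genes included the very abundant Acta1, Ckm and Myh4. All 10 together made up 22.5% ± 1.45 of each control library and 12.7% ± 1.48 of each knockout library (SD, n = 4 each). The fall was not uniform, since 8 of the 10 fell, 1 (Myh1) rose and 1 (Myh2) did not pass. By group means after TMM scaling, Myh4 went from 103899 to 20582 CPM (counts scaled by library size). Myh1 went from 7246 to 16074 CPM, with no overlap (adjusted p = 0.0017 by edgeR with BH adjustment). TMM factors ran from 0.75 to 0.84 in the controls and from 1.19 to 1.33 in the knockouts. The 44 genes together took 1.30% ± 0.081 of the counts in controls and 1.36% ± 0.058 in knockouts, with overlapping groups. Their summed level after TMM scaling went from 16426 ± 827 CPM to 10816 ± 569 CPM, with no overlap. By complex, the summed level was 2206 ± 113 CPM in controls and 1366 ± 98.9 CPM in knockouts for complex II. It was 3791 ± 210 CPM and 2491 ± 145 CPM for complex III. For ATP synthase it was 10189 ± 499 CPM and 6835 ± 333 CPM. In each complex the groups were apart by TMM-scaled level and overlapped by share of counts.

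**Figure D2:**
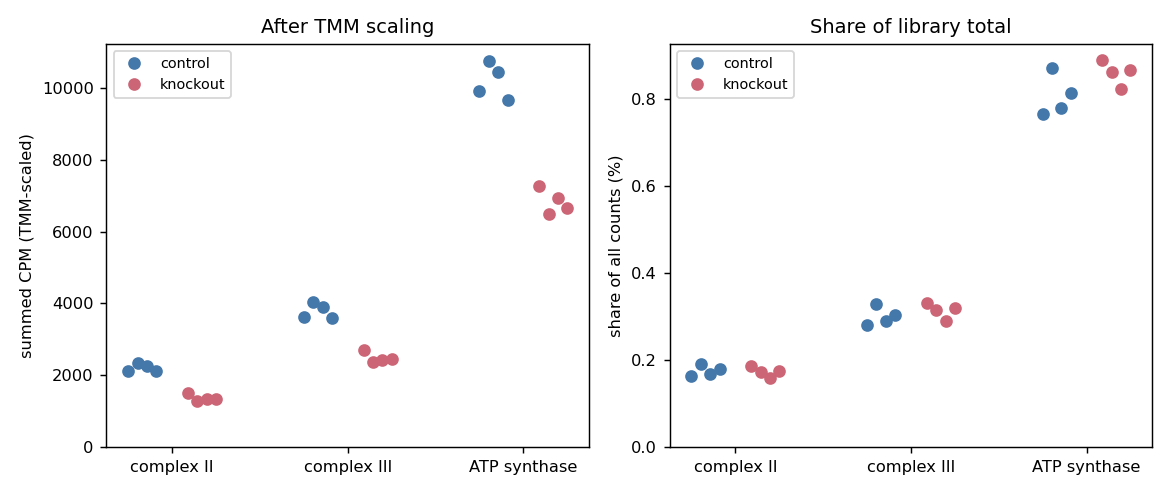
Summed level of the genes of complex II, complex III and ATP synthase in each library, as TMM-scaled CPM (left y axis) and as percent of all counts (right y axis), with 1 point per library in control (blue) and knockout (red). The groups are apart on the left and overlap on the right in each complex, so the direction depends on the scaling.

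Markers of other cells were read in the same libraries. None of the 8 adipocyte markers passed, but their summed level ranged from 253 to 1506 CPM in controls and from 721 to 2621 CPM in knockouts. Of the other markers, 5 of 7 slow oxidative fibre genes and 1 of 7 macrophage genes (Cd68) were higher, while 4 of 6 fibroblast, 4 of 5 endothelial and 2 of 4 smooth muscle cell genes were lower. Among satellite cell genes 1 of 3 was lower and 1 higher, and none of the 4 Schwann cell or 5 red blood cell genes passed. The slow fibre genes summed to between 101 and 194 CPM in controls and between 386 and 1578 CPM in knockouts. With the mean of the adipocyte markers added to the model, which was chosen once the data had been seen, 32 of the 44 genes were lower, with Atp5h, Atp5l and Sdhaf2 lost, and Atpif1 was higher. The part of the slow fibre, macrophage, fibroblast, endothelial, smooth muscle and satellite cell genes in the results below was not tested.

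Complex II had 6 lower genes of 8, with a median of -0.51. All 4 subunit genes were lower. Sdha, the flavoprotein that oxidises succinate (Entrez Gene 66945, chr13:74322255-74350240 on the minus strand of GRCm38), was at 1151, 1271, 1246 and 1167 CPM in control replicates 1 to 4 and at 743, 608, 641 and 630 CPM in knockout replicates 1 to 4. No knockout library reached the lowest control (log2 fold change -0.88, standard error 0.089, adjusted p = 1.86e-05 by edgeR with BH adjustment). Sdha was also the most abundant gene of complex II per length, at 423 CPM per kb of exon in controls. The iron-sulfur subunit gene Sdhb had a log2 fold change of -0.46, and the membrane anchor genes Sdhc and Sdhd had -0.57 each. Their values lay between 141 and 290 CPM in knockouts and between 225 and 426 CPM in controls, and each of these 3 genes was apart between the groups.

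The 4 assembly factors of complex II did not move alike. Sdhaf2, which attaches FAD to SDHA, was lower (log2 fold change -0.31, adjusted p = 0.00442 by edgeR with BH adjustment), and this call was lost on leaving out control replicate 1, 2 or 3 or knockout replicate 4. Sdhaf3, which helps mature the iron-sulfur subunit, was at 9.86, 8.31, 11.1 and 9.39 CPM in control replicates 1 to 4 and at 6.255, 5.587, 7.018 and 6.002 CPM in knockout muscle. The knockout values lay below all controls (log2 fold change -0.63, standard error 0.12, adjusted p = 0.00138 by the same test). Sdhaf4, which acts on free SDHA, had 18.02, 15.45, 18.25 and 16.64 CPM in the control libraries and 14.93, 14.97, 12.88 and 14.07 CPM in the knockout libraries. Its groups were apart but it did not pass (log2 fold change -0.26, 95% interval -0.46 to -0.07, adjusted p = 0.0268 by the same test). Sdhaf1, which protects and fits the iron-sulfur clusters of SDHB, had 18.10, 14.14, 18.25 and 17.52 CPM in control muscle and 22.68, 17.81, 21.96 and 20.55 CPM in knockout muscle, with overlap. It had a log2 fold change of 0.29 (95% interval 0.05 to 0.53, adjusted p = 0.0426 by the same test), which did not pass. Per exon length, Sdhaf1 amounted to 4.18 ± 0.605 per 100 of Sdha in controls and 9.37 ± 0.654 in knockouts (SD, n = 4 each), a ratio within each library that needs no scaling. The groups of this ratio did not overlap, and the pair was chosen after its values were seen, so no test is given. Sdhaf1 and Sdha had the highest and the lowest log2 fold change of complex II, so the ratio shows the full range of the complex.

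Complex III had 10 lower genes of 15, none higher and 5 not past the threshold, with a median of -0.65. The 2 core proteins and the 2 nuclear-encoded electron carriers were all lower. Uqcrc1, a core protein (Entrez Gene 22273, chr9:108936648-108949641 on the plus strand of GRCm38), was at 780, 907, 834 and 832 CPM in control replicates 1 to 4 and at 475, 429, 425 and 417 CPM in knockout replicates 1 to 4. The knockout libraries lay well below the controls, at 52.1% of the control level by the fit (log2 fold change -0.94, standard error 0.081, adjusted p = 6.63e-06 by edgeR with BH adjustment). The Rieske iron-sulfur protein gene Uqcrfs1 (chr13:30540312-30545316, minus strand) was at 432, 495, 472 and 449 CPM in control muscle and at 284, 256, 241 and 255 CPM in knockout muscle. The groups were apart again (log2 fold change -0.83, standard error 0.078, adjusted p = 1.19e-05 by the same test). Cyc1, the cytochrome c1 gene, and Uqcrc2, the other core protein gene, had log2 fold changes of -0.64 and -0.65.

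The small subunits of complex III split. Uqcr11, Uqcrb and Uqcrh were lower, with log2 fold changes of -0.72, -0.69 and -0.54. Uqcrb, the most abundant gene of complex III per length at 508 CPM per kb (Uqcrc1 was at 506 CPM per kb), was at 259, 260, 277 and 226 CPM in control muscle and at 175, 153, 152 and 152 CPM in knockout muscle. Its groups were apart (adjusted p = 6.03e-05 by edgeR with BH adjustment). Uqcr10 did not pass (log2 fold change -0.22, 95% interval -0.40 to -0.05, adjusted p = 0.0334 by the same test). Uqcrq, which encodes the subunit next to cytochrome b in the membrane (chr11:53427922-53430831, minus strand), was at 237, 300, 276 and 270 CPM in control muscle and at 335, 265, 326 and 323 CPM in knockout muscle. The knockout values overlapped the controls through knockout replicate 2. The log2 fold change of Uqcrq was 0.21 (95% interval -0.01 to 0.43, adjusted p = 0.097 by the same test). Within each library and per exon length, Uqcrq amounted to 32.9 to 35.9 per 100 of Uqcrc1 in control libraries and to 67.0 to 84.1 per 100 in knockout libraries. This ratio, chosen after its values were seen and so given without a test, was 2.22 times higher in the knockouts by the group means and does not depend on the scaling. Uqcrq and Uqcrc1 had the highest and the lowest log2 fold change of complex III, so the ratio shows the full range of the complex.

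Of the 6 assembly factors of complex III, 3 were lower. These were Uqcc1, which acts early on cytochrome b (log2 fold change -0.79), Bcs1l, the translocase that inserts the Rieske protein (-0.75), and Ttc19, which clears fragments of that protein (-0.74). Ttc19 overlaps Ncor1 on the opposite strand. Strand use in the counting is not stated, and Ncor1 had 2576 counts on average beside 829 of Ttc19 and a log2 fold change of -0.51, in the same direction. Uqcc2, Uqcc3 and Lyrm7 did not pass. Lyrm7, the chaperone of the Rieske protein before its insertion, had 10.5, 9.89, 9.95 and 8.13 CPM in control muscle and 10.3, 9.98, 8.54 and 9.10 CPM in knockout muscle. Its groups overlapped (log2 fold change -0.02, 95% interval -0.27 to 0.23, adjusted p = 0.908 by edgeR with BH adjustment), so with this spread a change of the size of Bcs1l lay outside the interval. Uqcc2 had a log2 fold change of -0.20 (95% interval -0.39 to 0.00) and Uqcc3 of -0.30 (95% interval -0.55 to -0.05), and Uqcc3 passed the threshold when control replicate 4 was left out.

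Cycs, the single cytochrome c gene in the set (Entrez Gene 13063, chr6:50562563-50566474 on the minus strand of GRCm38), had the lowest log2 fold change of the 44 genes. It was at 262, 248, 245 and 209 CPM in control replicates 1 to 4 and at 137, 117, 115 and 125 CPM in knockout replicates 1 to 4. The highest knockout library stayed below the lowest control library, and the fitted level was 51.4% of the control level (log2 fold change -0.96, standard error 0.089, adjusted p = 1.13e-05 by edgeR with BH adjustment). With library totals alone Cycs was the only one of the 44 genes still called lower (log2 fold change -0.29, adjusted p = 0.00798 by the same test). Cytochrome c has processed pseudogenes, and reads that mapped to several places had been left out, so the values describe the reads that mapped to this gene alone. Per length its level was modest, at 78.6 CPM per kb in controls, the lowest among the 29 subunit and cytochrome c genes. This rank rests on its listed exon width of 3059 bases, the largest of the 29. By CPM it was not the lowest, with a control mean of 241 beside 163 for Atp5k and 54.4 for Atp5g2.

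ATP synthase had 18 lower genes of 20, 1 higher and 1 not past the threshold, with a median of -0.54. All 5 genes of the F1 head and central stalk, all 4 of the peripheral stalk and all 3 small membrane subunits were lower. Atp5j, a peripheral stalk gene (chr16:84827871-84835625, minus strand), had the lowest value of the complex and was at 313, 346, 344 and 296 CPM in control replicates 1 to 4 and at 194, 162, 188 and 187 CPM in knockout replicates 1 to 4. The groups did not overlap (log2 fold change -0.83, standard error 0.084, adjusted p = 1.91e-05 by edgeR with BH adjustment). Atp5j overlaps Gabpa on the opposite strand, and Gabpa had 699 counts on average beside 4512 of Atp5j and a log2 fold change of 0.05.

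The genes of the F1 alpha and beta subunits were both lower. Atp5a1, which encodes the alpha subunit, was at 2360, 2638, 2506 and 2410 CPM in control muscle and at 1507, 1386, 1395 and 1366 CPM in knockout muscle, and its groups were apart (log2 fold change -0.81, standard error 0.084, adjusted p = 2.35e-05 by edgeR with BH adjustment). Atp5b, the beta subunit gene (Entrez Gene 11947, chr10:128083307-128090388 on the plus strand), was the most abundant of the 44 genes per length, at 1680 CPM per kb in controls. It was at 3024, 3308, 3229 and 3069 CPM in control muscle and at 2457, 2169, 2354 and 2182 CPM in knockout muscle, again with no overlap. Atp5b was lower too (log2 fold change -0.46, standard error 0.090, adjusted p = 0.00142 by the same test). Alpha and beta subunits stand in equal number in the F1 head. Per exon length, Atp5b amounted to 162 to 167 per 100 of Atp5a1 in control libraries and to 202 to 218 per 100 in knockout libraries, a ratio chosen after its values were seen and given without a test. The other F1 genes, Atp5e, Atp5c1 and Atp5d, had log2 fold changes of -0.65, -0.47 and -0.43.

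Among the other stalk genes, Atp5f1 and Atp5o had log2 fold changes of -0.53 and -0.51, and Atp5h had -0.31. Atp5f1 overlaps Wdr77 on the opposite strand, which had 917 counts on average beside 9682 of Atp5f1 and a log2 fold change of 0.65. The small membrane subunits Atp5j2, Atp5k and Atp5l had -0.66, -0.56 and -0.25. The calls of Atp5h (adjusted p = 0.00872 by edgeR with BH adjustment) and Atp5l (adjusted p = 0.00478 by the same test) were lost with some libraries left out. Atp5h lost its call on leaving out control replicate 2 or 3 or knockout replicate 2, 3 or 4, and Atp5l lost it without control replicate 1, 2 or 3. Both assembly factors of the F1 head were lower, Atpaf1 at -0.63 and Atpaf2 at -0.36. Atp5s and Atp5sl, counted among the 20 ATP synthase genes for their names alone, were lower at -0.63 and -0.66. Both were low per length, at 11.2 and 16.2 CPM per kb in controls.

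The c-ring is built from 1 kind of mature subunit that 3 isogenes encode with different import sequences, so their shares within a library compare the genes without any scaling between libraries. Per exon length, Atp5g1 (chr11:96072793-96075694, minus strand) supplied 38.2%, 36.7%, 37.2% and 34.7% of the c-ring counts in control replicates 1 to 4 and 31.5%, 32.0%, 34.4% and 32.1% in knockout replicates 1 to 4. Atp5g2 (chr15:102662868-102671047, minus strand) supplied 6.72%, 5.90%, 6.35% and 5.84% in the controls and 11.0%, 11.6%, 10.6% and 9.83% in the knockouts. Atp5g3 (chr2:73908447-73911326, minus strand) supplied 55.0%, 57.4%, 56.5% and 59.5% in the controls and 57.5%, 56.4%, 55.0% and 58.1% in the knockouts. The share of Atp5g2 was above every control in every knockout library and that of Atp5g1 below, each with p = 0.0286 in a two-sided exact permutation test, the smallest p that 4 against 4 allows, and 0.0429 after adjustment over the 3 shares. Atp5g3 overlapped (exact permutation p = 0.771). Since the 3 shares add up to the whole, a higher share of 1 isogene lowers those of the others, and the 2 results are not separate. Per 100 of Atp5g3, Atp5g1 amounted to between 58.3 and 69.5 in control libraries and between 54.7 and 62.6 in knockout libraries, with overlap. Atp5g2 amounted to between 9.82 and 12.2 per 100 of Atp5g3 in control libraries and between 16.9 and 20.5 in knockout libraries, with no overlap. These ratios were added after the shares were seen and are given without a test.

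As levels, Atp5g1 went from 433 to 259 CPM and Atp5g3 from 561 to 377 CPM by the group means, and both were lower (log2 fold change -0.74 and -0.57). Atp5g2 had 58.4, 55.8, 56.1 and 47.4 CPM in control muscle and 67.4, 63.7, 64.6 and 59.5 CPM in knockout muscle. Its groups were apart, though it did not pass (log2 fold change 0.23, 95% interval 0.06 to 0.40, adjusted p = 0.0281 by edgeR with BH adjustment), and with a trend of fold change on exon length removed its value turned to -0.02.

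**Figure D3:**
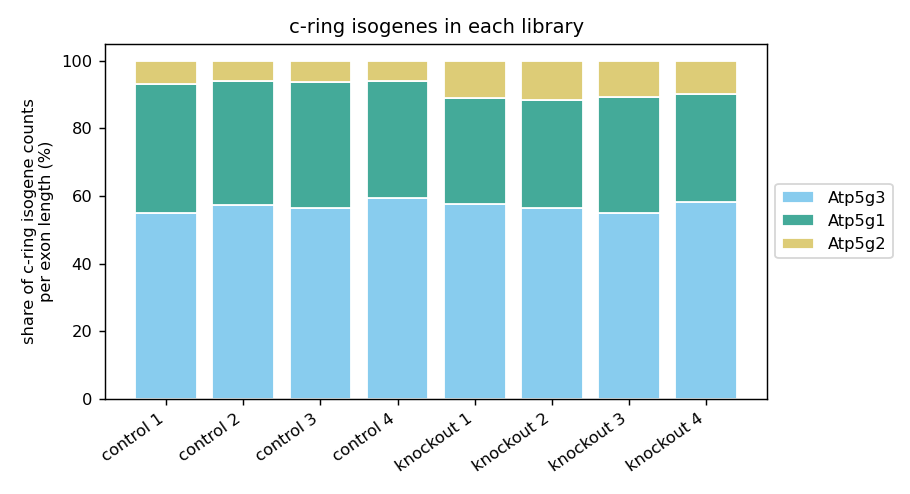
Share of the c-ring counts per exon length (y axis, percent) supplied by Atp5g3, Atp5g1 and Atp5g2 in each of the 8 libraries (x axis, 1 bar per library). Atp5g2 supplies between 5.84% and 6.72% in control libraries and between 9.83% and 11.6% in knockout libraries, and Atp5g3 is at 55.0% to 59.5% throughout.

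Atpif1 encodes the inhibitor that keeps ATP synthase from running backwards and breaking down ATP (Entrez Gene 11983, chr4:132530555-132535414 on the minus strand). It was at 14.70, 17.35, 19.47 and 15.12 CPM in control replicates 1 to 4 and at 21.47, 20.01, 22.08 and 24.05 CPM in knockout replicates 1 to 4. All knockout libraries were above all controls by a narrow margin, and it was the only one of the 44 genes called higher (log2 fold change 0.39, standard error 0.10, adjusted p = 0.00864 by edgeR with BH adjustment). The call was lost on leaving out control replicate 1, 2 or 4 or knockout replicate 1, 3 or 4, with an adjusted p of up to 0.0359 by the same test, while the log2 fold change stayed between 0.33 and 0.48. The call was also lost when edgeR used the RLE size factors of DESeq2 (log2 fold change 0.35, adjusted p = 0.0157 by the same test). DESeq2's own test with BH adjustment kept the call (log2 fold change 0.35, adjusted p = 0.00939). The study, which used DESeq2, reports Atpif1 as increased. Measured against the mean of the 5 F1 genes, per exon length and within each library, Atpif1 amounted to 12.6, 13.6, 15.6 and 13.1 per 1000 in control libraries and to 24.8, 25.9, 26.5 and 30.5 per 1000 in the knockouts. The ratio was 1.96 times higher by the group means and was given no test, since it was chosen after its values were seen.

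**Figure D4:**
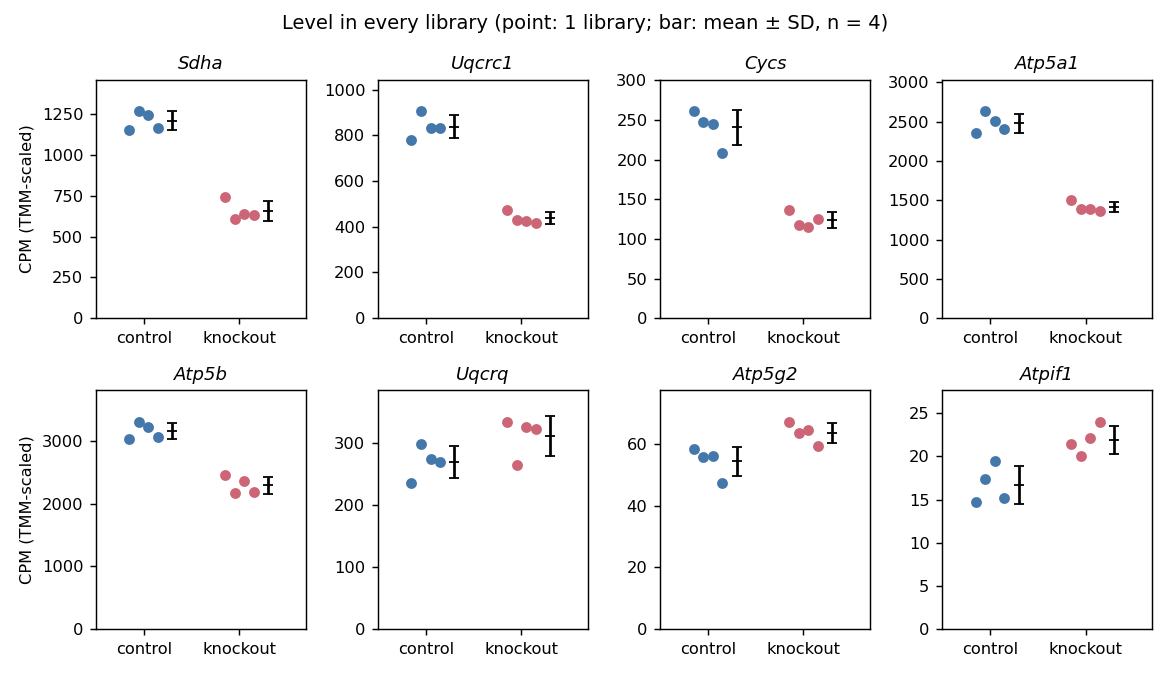
Level of 8 genes in every library (y axis, TMM-scaled CPM from 0, 1 point per library, bar mean ± SD, n = 4 per group) in control (blue) and knockout (red). Sdha, Uqcrc1, Cycs, Atp5a1 and Atp5b are lower in every knockout library, Atp5g2 and Atpif1 are narrowly higher, and Uqcrq overlaps. The log2 fold change of Atp5g2 turned to -0.02 with a trend on exon length removed. With library totals alone the log2 fold change of Atp5b was 0.20, so its direction depends on the scaling.

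By role, the 29 structural subunit and cytochrome c genes and the 12 assembly factors were described apart. Of the subunit and cytochrome c genes 26 were lower and 3 (Uqcr10, Uqcrq and Atp5g2) did not pass, with a median of -0.57. Of the assembly factors 7 were lower and 5 (Sdhaf1, Sdhaf4, Uqcc2, Uqcc3 and Lyrm7) did not pass, with a median of -0.33. The difference between these roles was not tested. The subunit and cytochrome c genes were far more abundant, with a median of 404 CPM per kb in controls, beside 16.8 CPM per kb for the other 15 genes (assembly factors, Atpif1, Atp5s and Atp5sl). Across the 44 genes the log2 fold change had a Spearman correlation of -0.29 with the control level per kb and of -0.27 with exon length, beside -0.33 and -0.10 across all genes, given as a description since the genes share libraries and depth.

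The libraries also differed among themselves in these genes as a group. Knockout replicate 1 was the highest knockout library in 33 of the 44 genes and the lowest in none, and it had the largest adipocyte marker sum of the 8 libraries, 2621 CPM. Knockout replicate 2 was the lowest knockout library in 27 genes. Among controls, control replicate 4 was the lowest in 23 genes and the highest in none, with an adipocyte marker sum of 1477 CPM. Control replicate 3 was the lowest in 1 gene, with a sum of 253 CPM. A relation between these sums and the ranks was not tested.

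Partners of the complexes from lists of their own were read beside the members. CYTB, the mtDNA-encoded cytochrome b of complex III, fell from 19206 ± 253 CPM to 6557 ± 776 CPM (SD, n = 4 each, log2 fold change -1.55, adjusted p = 5.27e-06 by edgeR with BH adjustment). ATP6 of the ATP synthase membrane part was at only 3.73 ± 0.314 CPM in controls and 1.04 ± 0.141 CPM in knockouts (log2 fold change -1.84), after reads mapping to several places had been left out. Unlike the nuclear-encoded genes' median, both stayed negative with library totals alone, at -0.89 and -1.17. Of 6 other dehydrogenases that also feed coenzyme Q, 3 were lower (Gpd2 at -1.89, Sqrdl at -1.46 and Etfdh at -0.63), Prodh was higher at 1.06, and Dhodh and Chdh did not pass.

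The carriers that supply ATP synthase moved apart. Slc25a4, the adenine nucleotide carrier of muscle, went from 3962 ± 336 CPM to 1446 ± 116 CPM (log2 fold change -1.45) and Slc25a5, another isoform, from between 34.6 and 45.2 CPM to between 112 and 144 CPM (log2 fold change 1.68), each with no overlap. The phosphate carrier gene Slc25a3 and the cyclophilin D gene Ppif were lower, at -0.50 and -0.47. Tmem70 and Tmem242, which help build the c-ring part of ATP synthase, were lower at -0.41 and -0.62, as was Tmem186, known for complex I assembly, at -0.69. Of the genes tied to supercomplexes, Higd1a and Higd2a were lower and Cox7a2l did not pass.

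The subunits of complexes I and IV were set beside the 44 genes. Of 36 complex I subunit genes 33 were lower and none higher, with a median of -0.60 and a range of -1.23 to 0.03. Of 15 complex IV subunit genes 5 were lower and 3 higher, with a median of -0.27 and a range of -2.09 to 1.54. The spread of log2 fold changes (SD over genes) was 0.35 in complex II, 0.34 in complex III and 0.31 in ATP synthase. It was 0.27 for the complex I subunits and 0.90 for the complex IV subunits. The sets are unlike, since those of complexes II, III and ATP synthase also hold assembly factors, and that of ATP synthase its inhibitor and other names. These comparisons are descriptions, with no test between complexes.

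**Figure D5:**
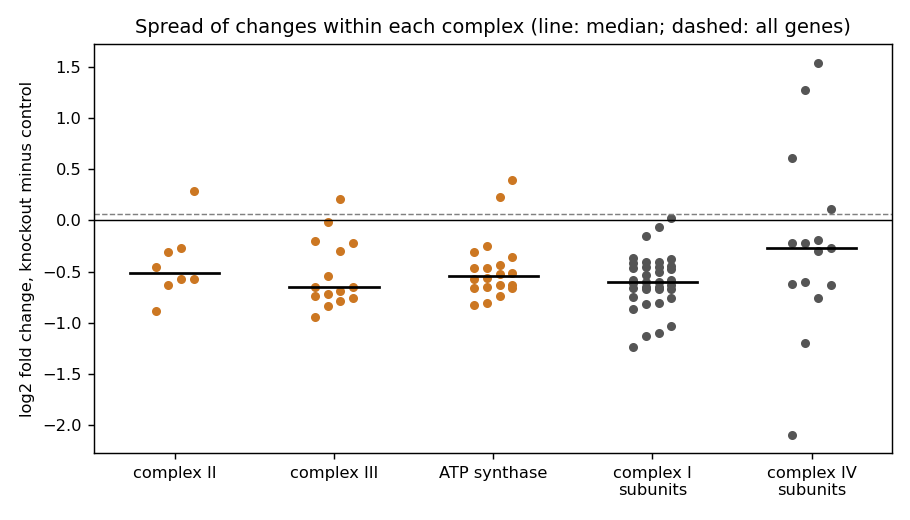
Log2 fold change (y axis, knockout minus control, TMM scaling) of each gene of complex II, complex III and ATP synthase (orange) and of the complex I and complex IV subunits (grey), with the median of each group as a line and that of all genes dashed. The medians are -0.51, -0.65, -0.54, -0.60 and -0.27, and complex IV reaches from -2.09 to 1.54. With library totals alone the median over the 44 genes was 0.10.

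Promoters were read to show what surrounds the start sites of the genes that moved most and of the c-ring isogenes and Atpif1. RefSeq windows of 250 bases before to 50 after the start (GRCm38.p6) were at hand for 35 of the 44 genes, in 39 windows, and for 10673 of the 14012 genes, in 13606 windows. Runs of letters were searched on both strands for nuclear factors linked to respiratory genes and for ATF4, a factor of the stress response that the study describes. The NRF1 run GCATGCGC was in a window of 8 of the 35 genes (22.9%), beside 5.68% of all genes. The estrogen-related receptor run CAAGGTCA was in 4 genes (11.4%) beside 1.34%, the GABP run CCGGAAGT in 4 (11.4%) beside 8.40%, and the YY1 run AAGATGGC in 4 (11.4%) beside 4.94%. The ATF4 run TGATGNAAT was in 0 of the 35, beside 0.534% of all genes. A run this rare would be missing from most sets of 35 genes, so its absence says nothing about ATF4. The NRF1 run was in 7 of 27 lower genes and in 1 of 7 that did not pass, Atp5g2. A match says only that the letters are there, and no binding was measured.

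The stretches below run 5′ to 3′ on the strand of the gene, with the NRF1 run, found on either strand, in capitals. In Uqcrc1 and Atp5g2 the matches on both strands overlap. That of Uqcrc1 holds 30 bases around a run that lies 30 bases after the start and reads the same on both strands over its whole length, at chr9:108936668-108936697 (plus strand). The others hold the 250 bases before the RefSeq start, for Cycs at chr6:50566570-50566819, for Atp5g1 at chr11:96075632-96075881, for Atp5g2 at chr15:102671048-102671297 and for Atpif1 at chr4:132535415-132535664 (all minus strand). The RefSeq start of Cycs lies outside the gene span given in the deposited table. The run lies 60 bases before the start in Cycs and 42 bases before it in Atp5g2, and no searched run is in the windows of Atp5g1 and Atpif1.
Uqcrc1: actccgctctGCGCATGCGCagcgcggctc
Cycs: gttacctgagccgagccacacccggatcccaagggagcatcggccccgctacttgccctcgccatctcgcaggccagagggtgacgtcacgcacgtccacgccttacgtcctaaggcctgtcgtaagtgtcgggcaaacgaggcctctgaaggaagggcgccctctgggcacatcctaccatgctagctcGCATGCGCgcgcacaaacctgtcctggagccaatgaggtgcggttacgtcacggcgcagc
Atp5g1: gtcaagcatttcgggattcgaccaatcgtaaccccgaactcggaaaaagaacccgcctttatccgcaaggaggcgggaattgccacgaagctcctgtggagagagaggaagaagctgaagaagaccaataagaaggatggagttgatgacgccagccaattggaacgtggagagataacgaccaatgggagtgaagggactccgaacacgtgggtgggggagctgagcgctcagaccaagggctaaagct
Atp5g2: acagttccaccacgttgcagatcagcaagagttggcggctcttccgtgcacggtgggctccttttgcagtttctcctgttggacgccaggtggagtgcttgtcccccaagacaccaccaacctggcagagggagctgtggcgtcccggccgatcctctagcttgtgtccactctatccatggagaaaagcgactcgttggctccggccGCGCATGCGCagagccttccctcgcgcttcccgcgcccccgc
Atpif1: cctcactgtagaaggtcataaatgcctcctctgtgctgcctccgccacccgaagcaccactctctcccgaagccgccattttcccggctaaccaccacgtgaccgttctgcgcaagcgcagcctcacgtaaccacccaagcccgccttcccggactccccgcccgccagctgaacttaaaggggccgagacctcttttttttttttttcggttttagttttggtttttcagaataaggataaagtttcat
The same run thus stands in the windows of Uqcrc1 and Cycs, which were lower, and of Atp5g2, which was not.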

How the data were processed

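RNA of QF muscle of 4 control and 4 knockout mice was sequenced by the authors, 1 directional polyadenylated library per mouse. Per the labels and the submitters' processing notes, the tools were STAR 2.5.4b, bcl2fastq 2.20.0.422, DESeq2 1.32.0 and cutadapt, with the build GRCm38. The deposited counts are raw counts of read pairs on exons, made by the authors with Rsubread without duplicate or multimapping reads, for genes with enough reads over all libraries. The deposited FPKM, computed by the authors out of these counts, were used only to check them. The authors' fold changes and p-values in the table were not used. Libraries held 16017565 to 20361144 counts, and their number and spread limit the precision. 

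Counts of all 14012 genes were fitted with edgeR 4.0.16 (TMM, quasi-likelihood test, group as the only term, R 4.3.3, limma 3.58.1) and adjusted by Benjamini-Hochberg, at an adjusted p under 0.01. CPM are over TMM-scaled library sizes, and CPM per kb divide by exon width. Shares of the c-ring isogenes were compared by exact permutation over 70 assignments. Values per library are given, by rule, for the 2 lowest and 2 highest log2 fold changes and the most abundant gene of each complex, the genes called higher and the c-ring isogenes, and other genes by role. The members and lists were chosen with earlier results of these data known. Alternatives were other scalings, filters, DESeq2 1.42.0, robust dispersions, a threshold of 0.05, the replicate number as a block, an exon-length trend, each library left out, and, added after seeing the data, adipocyte markers as a covariate. The procedure was tested on simulated data in which a small part of the genes changed, as many upward as downward. That setting lacks the strong shift of library composition seen here, so it did not check the scaling.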

Additional observations from a re-analysis of the deposited data

Results flagged for a closer look

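In 3 of the 88 groups of 4 libraries examined (44 genes in 2 groups), 1 library stood apart from the other 3 beyond Dixon's 95% limit for the gap over the range, a number that chance alone gives in about 1 of 20 groups. In each case it was knockout replicate 1, and in each case the value lay above the other knockouts. Atp5f1 was at 463.7 CPM in it and between 424.1 and 429.9 CPM in the others, Uqcrb at 174.7 CPM and between 152.2 and 153.1 CPM, and Uqcc3 at 34.73 CPM and between 30.09 and 30.88 CPM. Without that library Atp5f1 and Uqcrb kept their calls and Uqcc3 stayed short of the threshold.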

How the results depend on the processing

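Library totals alone turned the direction of 28 of the 44 genes, and the log2 fold changes then were Atp5b 0.20, Atp5c1 0.20, Atp5d 0.24, Atp5e 0.0219, Atp5f1 0.15, Atp5g3 0.10, Atp5h 0.36, Atp5j2 0.00794, Atp5k 0.11, Atp5l 0.41, Atp5o 0.16, Atp5s 0.0363, Atp5sl 0.0062, Atpaf1 0.0382, Atpaf2 0.31, Cyc1 0.0236, Lyrm7 0.66, Sdhaf2 0.36, Sdhaf3 0.0326, Sdhaf4 0.41, Sdhb 0.21, Sdhc 0.10, Sdhd 0.11, Uqcc2 0.47, Uqcc3 0.37, Uqcr10 0.45, Uqcrc2 0.0205 and Uqcrh 0.13. Under this scaling 1 of the 44 genes was lower and 15 were higher, beside 6.23% and 60.6% of all genes. By complex, 0 were lower and 7 higher in ATP synthase, 0 and 3 in complex II and 0 and 5 in complex III. Lyrm7 also turned to 0.0154 with upper-quartile factors, to 0.00725 with genes of a mean count of at least 50, to 0.0271 without control replicate 1 and to 0.000668 without control replicate 3, within a range of -0.0908 to 0.0271 with each library left out.

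The count of lower genes stayed between 32 and 38 of 44 under every alternative other than library totals, with 37 by DESeq2, which also called Sdhaf4 and Uqcr10, and 32 with the adipocyte covariate, which lost Atp5h, Atp5l and Sdhaf2. Of the 35 lower genes, 32 kept their call with each library left out in turn. Atpif1 was no longer called, leaving 0 higher genes overall and in ATP synthase, with RLE factors, with TMM without the 20 most abundant genes and with the replicate block, and the count of higher genes ranged from 0 to 1 with each library left out. Atpif1 kept its call with DESeq2, upper-quartile factors, the gene filters, robust dispersions and the adipocyte covariate. At an adjusted p under 0.05 there were 3 higher genes, 2 of ATP synthase and 1 of complex II. Shares of all genes were counted only for the main fit and for library totals alone. The counts under the other alternatives, among them DESeq2 and 0.05, thus have no share of all genes beside them. The replicate block also lost Atp5h (34 lower genes remained). Correlations of the deviations of same-numbered libraries were 0.12, 0.0031, 0.42 and 0.14, and control and knockout replicates 2 did not match best, so the numbers were not taken to pair mice. With a trend of fold change on exon length removed, 41 of the 44 genes lay below 0 (median -0.74). Of the 44, 29 moved by at least a limit scaled from the standard error of their fitted log2 fold change. Atp5g2 then turned to -0.02, Sdhaf1 was at 0.09, Uqcrq at 0.07 and Atpif1 at 0.26.

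The c-ring share differences, knockout minus control in percentage points, ranged from -4.87 to -3.69 for Atp5g1 and from 4.29 to 4.87 for Atp5g2 with each library left out. Atp5g3 ranged from -1.05 to 0.43 and turned from -0.36 to 0.43 without control replicate 4, to 0.24 without knockout replicate 3 and to 0.33 as a share of raw counts. With 3 libraries in a group there are 35 assignments, and the groups of both isogenes stayed apart in every case. The unadjusted exact permutation p of Atp5g2 stayed at 0.0286, the smallest that 35 assignments allow, and that of Atp5g1 was 0.0286 or 0.0571. The adjusted p of both rose to 0.0857 on leaving out control replicate 1, 2 or 3 or knockout replicate 1, 2 or 4, which reflects the small number of assignments. Robust dispersions changed no call. The prior count that was varied enters only log2 CPM values and not the test, so it could not change a call. The depth limits the low genes most, such as Sdhaf3 with 122 counts in a library.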
